A study of Mus musculus with 6 samples.

Results

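Among nuclei of whole mouse adrenal glands, 1236 of 21034 that passed filters were Gata4 and Prdm6 stromal nuclei, called stromal nuclei below. A nucleus was chosen when it held at least 1 unique molecular identifier (UMI, the tag of 1 captured RNA molecule) of at least 3 of the 7 genes Gata4, Prdm6, Fbn2, Ptprq, Frem1, Nrg2 and Pdgfra. It also had to hold more of these genes than of 7 genes of another stromal type, the Rspo3 capsule nuclei (Rspo3, Luzp2, Ntng1, Gpc3, Vwc2, Npnt, Fgf13), and than of 5 mesothelial genes (Upk3b, Msln, Muc16, Lrrn4, Krt19). The same rule turned round gave 809 Rspo3 capsule nuclei and 38 mesothelial nuclei. The study compared Tmem127 knockout (KO) and wild-type (WT) mice, all female, of strain C57BL/6 J and 10 to 11 months old. Tmem127 encodes a membrane protein of endosomes and lysosomes. Nuclei of frozen glands were sorted on a signal given as DPI in the labels and sequenced as droplet libraries of RNA 3' ends, each from 1 pair of glands. The labels place 2 libraries in KO and 3 in the WT group, and a further library carries WT in its title but KO as its genotype. It is called the unassigned library and its values are given apart. The labels name no allele and do not say which part of Tmem127 is deleted, so the RNA level of Tmem127 (50.3 and 66.0 UMIs per 1000000, CPM, in KO and 48.9, 20.4 and 40.2 in WT stromal nuclei) checks no label.

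The adrenal cortex lies inside a capsule of stromal cells and shares an embryonic origin with the gonad, the adrenogonadal primordium. Gata4 is a zinc-finger transcription factor that the gonad keeps into adult life, while in the adrenal cortex its relative Gata6 is the main family member. Capsular cells respond to Sonic hedgehog, which cortical cells secrete, through the receptor Ptch1 and the transcription factors Gli1 and Gli2, and some descendants of hedgehog-responding cells enter the cortex. Prdm6 is a chromatin regulator of the PRDM family that is best known from smooth muscle.

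By library, stromal nuclei numbered 153 in KO replicate 1, 232 in KO replicate 2, 128 in WT replicate 1, 143 in WT replicate 2, 316 in WT replicate 3 and 264 in the unassigned library. Their median depth was 4146, 1549.5, 6876, 1756, 3624 and 4141.5 UMIs in the same order, so KO replicate 2 and WT replicate 2 were the shallowest. A larger gene annotation was used for KO replicate 1 and WT replicate 1 than for the other 4 libraries, so each annotation holds both genotypes. Any pair of libraries shared 2 to 8 cell barcodes, and among stromal nuclei 1 barcode was shared, between WT replicate 1 and the unassigned library. The rule was also met by 53 barcodes marked as doublets, which were removed. A further 22 nuclei held at least 3 of the 7 genes but no more of them than of the capsule or mesothelial genes. In 139 stromal nuclei at least as many cortical or endothelial markers were detected as genes of the rule, and whether these are mixed droplets was not tested.

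The 7 genes of the rule chose these nuclei, so their levels are a description without a test. Levels are given in CPM, that is per 1000000 UMIs of the summed nuclei of a library. Gata4 (chromosome 14, 63198922 to 63271692, minus strand, mm10) stood at 801 and 718 CPM from KO glands and 609, 567 and 492 in WT stromal nuclei, and at 593 in the unassigned library. Its mean over the 5 grouped libraries was 637 ± 123 CPM (SD, n = 5) against 12.9 ± 9.73 in all other nuclei and 10.8 ± 5.17 in capsule nuclei. Gata4 was thus high in stromal nuclei of every library, with the KO libraries above the WT libraries. In the comparison of genotypes below it was not called (log2 fold 0.40 ± 0.17, SE, edgeR adjusted p = 0.930). Prdm6 (chromosome 18, 53463583 to 53575907, plus strand, mm10) stood at 303 and 518 CPM from KO glands, 303, 502 and 372 from WT glands and 389 from the unassigned library. All other nuclei had 4.27 ± 4.60 CPM of Prdm6 (SD, n = 5). The genotypes overlapped in Prdm6, which was highest in the 2 shallowest libraries.

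The other genes of the rule encode matrix proteins and receptors. Fbn2, a fibrillin of microfibrils, had 356 ± 101 CPM in stromal nuclei (SD, n = 5) and 4.65 ± 4.50 in all others. Frem1, an extracellular matrix protein of the Fraser complex at basement membranes, had 378 ± 92.5 and 6.65 ± 3.79. Ptprq, a receptor-type phosphatase known from inner-ear hair cells, had 732 ± 101 and 11.7 ± 10.1. Nrg2, a neuregulin that signals through ErbB receptors, had 873 ± 201 and 30.7 ± 14.1, and Pdgfra, the PDGF receptor alpha of many mesenchymal cells, 891 ± 101 and 21.8 ± 12.7. Each of the 7 was at least 2-fold above all other nuclei in 5 of 5 libraries, a property of 551 of 10156 measured genes (5.43%), and at least 2-fold above capsule nuclei in 5 of 5, a property of 3.29%. A measured gene here is one with a mean of at least 10 CPM in stromal nuclei or in all others. A gene under 10 CPM in all others is thus measured only through stromal nuclei, where it has to be high, so the counts of list members above all other nuclei given below describe the lists and support nothing. Since the rule used these contrasts, the counts describe the choice.

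At least 1 UMI was found for Pdgfra in 82.1% of the 1236 nuclei, for Nrg2 in 76.5%, for Gata4 in 73.2% and for Prdm6 in 53.7%. Frem1 was detected in 52.6%, Fbn2 in 49.7% and Ptprq in 49.4%. Of the capsule genes that the rule set against them, 7 of 7 lay at least 2-fold below the capsule level in 5 of 5 libraries, as did 3.88% of all measured genes. Rspo3, the R-spondin secreted by the capsule that raises WNT signalling in the cortex below, had 10.1 ± 5.04 CPM in stromal nuclei and 2846 ± 442 in capsule nuclei (SD, n = 5). Luzp2 (4.44 against 1752 CPM on average), Vwc2 (3.42 against 742), Npnt (3.12 against 466) and Fgf13 (28.7 against 978) showed the same pattern. Ntng1 and Gpc3 were not absent, at 229.9 ± 43.9 and 153 ± 72.7 CPM in stromal nuclei against 2403 and 1975 in capsule nuclei. The summed mesothelial genes Upk3b, Msln, Muc16, Lrrn4 and Krt19 lay between 0 and 9.79 CPM in the grouped libraries, with Krt19 at 0 UMIs in all of them, and at 21.8 CPM in the unassigned library.

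The label was checked against markers of other cell types. Capsule or fibroblast markers (Col1a1, Col1a2, Col3a1, Dcn, Lum, Pdgfra, Gli1, Nr2f2), which include 1 gene of the rule, summed to 1836 to 2337 CPM in stromal nuclei, 1857 to 1998 in capsule nuclei and 223 to 350 in all others. Zona fasciculata markers summed to 573 to 1457 CPM against 3436 to 6587 in all others, and chromaffin markers to 81.1 to 182 against 696 to 1274. Endothelial markers summed to 170.0 to 289 CPM against 800 to 1183, and macrophage markers to 9.58 to 25.2 against 49.1 to 103. Pericyte or smooth muscle markers ran the other way, at 72.6 to 188 CPM against 41.3 to 74.2 in all others, and so did Schwann or sustentacular markers, at 136 to 299 against 55.8 to 87.7, with 3 of these 6 genes at 0 UMIs in the 5 libraries. Pdgfra, the gene of the rule in the fibroblast sum, had means of 824 CPM in KO and 936 in WT stromal nuclei. The closeness of that sum to the capsule's is thus partly built in by the choice of nuclei. Stromal nuclei carried fibroblast-type genes at higher levels than the rest, and cortical, chromaffin, endothelial and macrophage transcripts at lower levels. Schwann or sustentacular markers were higher than in the rest, and pericyte or smooth muscle markers overlapped it. The part of free RNA in these sums was not tested.

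Genes known from the gonad stood high in stromal nuclei although the rule did not name them. Of 10 genes listed for gonadal stroma or gonadal steroid-producing cells, 5 were measured, and Lhcgr, Amhr2 and Foxl2 were so only through stromal nuclei. Nuclei chosen by expression differ in many correlated genes, so the levels are a description. Wt1 (chromosome 2, 105126529 to 105173616, plus strand, mm10), a zinc-finger factor needed for adrenal and gonadal development, stood at 285 and 487 CPM from KO glands, 211, 285 and 409 from WT glands and 406 from the unassigned library. All other nuclei had 13.0 ± 14.0 CPM (SD, n = 5), capsule nuclei 51.1 ± 27.9 and endothelial nuclei 2.63 ± 2.32. Every library's stromal nuclei lay above the capsule range of 25.04 to 85.1 CPM, and the genotypes overlapped. Lhcgr (chromosome 17, 88716481 to 88791990, minus strand, mm10), the receptor of luteinizing hormone, stood at 71.3 and 117 CPM from KO glands, 54.3, 61.1 and 54.1 from WT glands and 53.8 from the unassigned library, against 2.46 ± 3.06 in all other and 2.24 ± 3.15 in capsule nuclei. The KO libraries lay above the WT libraries and the unassigned library lay below all 5.

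Foxl2, a forkhead factor of ovarian granulosa cells, had 36.6 ± 11.8 CPM in stromal and 1.00 ± 0.763 in all other nuclei (SD, n = 5). Amhr2, the receptor of anti-Müllerian hormone, had 54.9 ± 23.3 and 2.91 ± 2.73. Esr2 (chromosome 12, 76120419 to 76177259, minus strand, mm10), the oestrogen receptor beta of granulosa cells, stood at 106 and 142 CPM from KO glands, 168, 78.1 and 158 from WT glands and 157 from the unassigned library, against 3.63 ± 3.89 in all other nuclei. The genotypes overlapped in Esr2. Other gonadal genes were low: Fshr, the receptor of follicle-stimulating hormone, had 5.35 ± 3.69 CPM in stromal and 5.33 ± 3.16 in all other nuclei, and Inha, the inhibin alpha subunit, 20.7 ± 3.50 and 27.9 ± 4.90. Cyp17a1 and Cyp19a1, the enzymes of androgen and oestrogen synthesis, had 0 UMIs in the 5 grouped libraries, which allows up to 0.825 CPM over their summed nuclei. That limit covers counting error only.

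**Figure D1:**
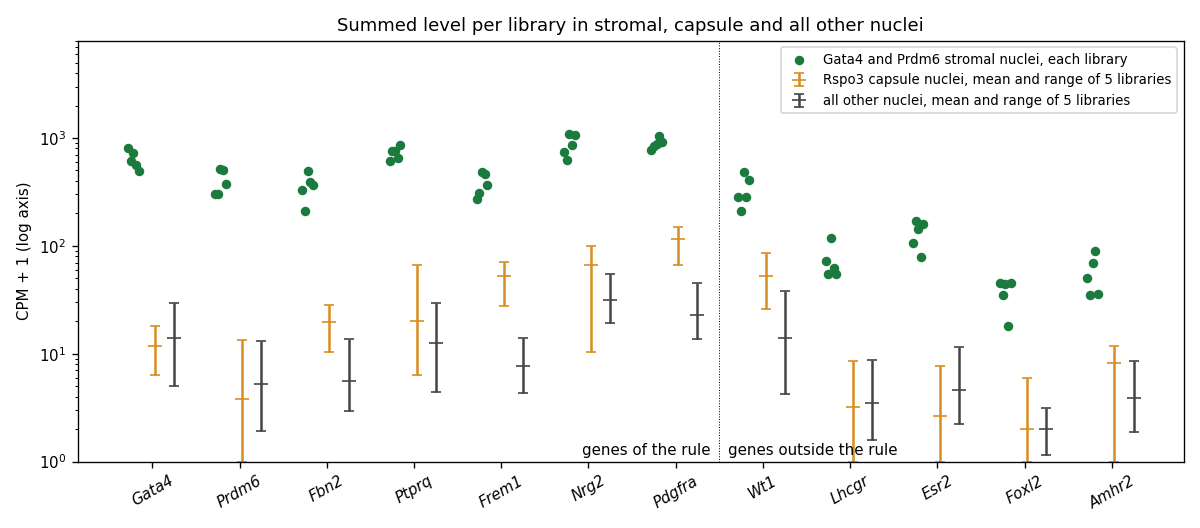
Level of 12 genes on a log axis of CPM + 1, with 1 green point per grouped library for stromal nuclei and the mean with the range of the 5 libraries for capsule (orange) and all other nuclei (grey). Left of the dotted line are the genes of the rule and right of it genes outside the rule; Wt1 in stromal nuclei runs from 211 to 487 CPM, above its capsule range of 25.04 to 85.1.

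Shares of nuclei with a UMI were also taken after every nucleus was thinned to 1000 UMIs. Nuclei with fewer were left out, 1 to 42 stromal nuclei per library and 75 over all 6 libraries. In the 5 grouped libraries Wt1 was then found in 15.3 to 31.6% of stromal nuclei, in 0.877 to 6.17% of capsule nuclei and in 0 to 0.813% of endothelial nuclei, which should lack it. Lhcgr was found in 3.94 to 9.47% of stromal, 0 to 0.629% of capsule and 0 to 0.153% of endothelial nuclei. Esr2 was found in 7.63 to 14.2%, 0% and 0 to 0.143%. In the unassigned library the stromal, capsule and endothelial shares were 25.6%, 5.70% and 0.267% for Wt1, 3.44%, 0% and 0% for Lhcgr, and 11.5%, 0.633% and 0.401% for Esr2. The stromal share thus lay above the endothelial share in each of the 6 libraries for all 3 genes. Before thinning the stromal shares in the grouped libraries were 32.9 to 55.1% for Wt1, 6.29 to 19.6% for Lhcgr and 12.6 to 28.1% for Esr2, and 62.9%, 14.0% and 25.8% in the unassigned library, at the median depths above, against endothelial medians of 961 to 3497 UMIs.

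The values around the limit of 3 genes were graded. The 483 nuclei with 2 genes of the rule, just outside, had 136 CPM of Wt1, 17.3 of Lhcgr and 38.6 of Esr2, summed over 6 libraries. The 357 stromal nuclei with 3 genes, just inside, had 261, 67.9 and 101, and the 16586 nuclei with none had 4.93, 0.685 and 0.913. Lama2, a laminin alpha chain, went from 77.2 CPM with none to 1792 with 2 and 3159 with 3 genes. Cyp11a1, the cortical enzyme that starts steroid synthesis, went from 642 CPM with none to 233 with 2, 191 with 3 and 35.4 with 7 genes. Median depth was 2098 UMIs at 2 genes and 1998 at 3, and it reached 5878.5 at 7. Nuclei with 2 genes therefore had intermediate levels of these genes.

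**Figure D2:**
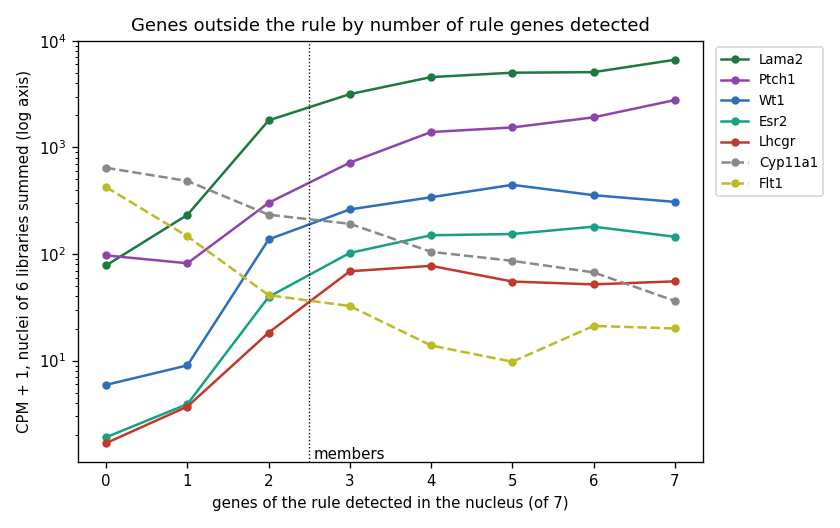
Levels of 7 genes outside the rule (CPM + 1, log axis, nuclei of 6 libraries summed) against the number of the 7 genes of the rule detected in a nucleus; nuclei right of the dotted line are stromal nuclei. Wt1, Esr2, Lhcgr, Lama2 and Ptch1 are higher with 3 genes than with 2, while Cyp11a1 and the endothelial gene Flt1 (dashed) are lower with 3 genes than with none.

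The promoters of Lhcgr, Esr2 and Amhr2 are shown because transcripts of these 3 receptors mark stromal nuclei and differ among their subgroups below. They run from 250 bases before to 50 after the gene start in RefSeq, build GRCm38.p6, written 5′ to 3′ on the gene's strand. The letters searched, on both strands, were AGATAA, besides this AGATAG, further TGATAA, and lastly TGATAG, the core of the GATA motif, and a match is in capitals. The positions are chr17:88791965-88792264 (minus strand) for Lhcgr, chr12:76177210-76177509 (minus strand) for Esr2 and chr15:102445117-102445416 (plus strand) for Amhr2.
Lhcgr: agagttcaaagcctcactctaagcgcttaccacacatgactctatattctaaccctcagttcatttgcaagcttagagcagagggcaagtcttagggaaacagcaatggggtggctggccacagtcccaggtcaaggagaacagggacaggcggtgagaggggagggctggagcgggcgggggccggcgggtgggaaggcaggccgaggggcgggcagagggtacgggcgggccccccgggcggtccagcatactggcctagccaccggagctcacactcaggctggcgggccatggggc
Esr2: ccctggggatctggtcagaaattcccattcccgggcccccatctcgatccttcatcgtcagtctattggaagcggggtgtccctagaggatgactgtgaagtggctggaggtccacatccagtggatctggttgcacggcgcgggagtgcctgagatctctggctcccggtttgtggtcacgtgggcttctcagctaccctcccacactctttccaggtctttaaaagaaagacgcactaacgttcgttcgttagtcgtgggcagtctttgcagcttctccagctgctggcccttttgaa
Amhr2: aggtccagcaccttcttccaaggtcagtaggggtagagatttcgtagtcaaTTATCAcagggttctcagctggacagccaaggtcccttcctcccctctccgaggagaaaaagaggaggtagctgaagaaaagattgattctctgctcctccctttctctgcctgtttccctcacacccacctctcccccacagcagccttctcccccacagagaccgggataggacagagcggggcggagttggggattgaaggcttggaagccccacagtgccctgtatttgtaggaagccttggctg
Amhr2 held 1 match, TTATCA, the reverse strand of TGATAA, and the windows of Lhcgr and Esr2 held none of these letters. Of 32 genes of the rule or leading in stromal nuclei, 18 matched the promoter table with 20 promoters, of which 2 (10%) held a match. Among all 32851 promoters of the same length 9778 (29.8%) did. A match describes letters and not a bound site.

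Steroid-producing enzymes of the cortex were low in stromal nuclei. Of 14 measured genes of steroid synthesis and metabolism, 6 (Star, Cyp11a1, Hsd3b1, Cyp21a1, Cyp11b1 and Fdxr) lay at least 2-fold below all other nuclei in 5 of 5 libraries, as did 9.21% of all measured genes, and 1 lay at least 2-fold above. Star, the cholesterol import protein, had 113 ± 59.4 CPM in stromal, 68.0 ± 27.8 in capsule and 499 ± 164 in all other nuclei (SD, n = 5). Cyp11a1 had 90.3 ± 39.4, 70.7 ± 37.2 and 551 ± 206. The stromal levels lay near those of capsule and endothelial nuclei (58.7 CPM of Cyp11a1). Nr5a1, the transcription factor SF-1 that drives steroid genes, had 51.1 ± 12.0 CPM in stromal nuclei, 28.8 ± 20.1 in capsule, 14.3 in endothelial and 161 ± 27.1 in all other nuclei. Hsd11b1, which regenerates active glucocorticoid, was the 1 gene above, at 57.3 and 27.9 CPM from KO glands, 121, 61.1 and 46.4 from WT glands and 48.3 from the unassigned library, against 15.1 ± 3.65 in all other nuclei. Hsd11b1 was highest in WT replicate 1 and lowest in KO replicate 2, and the genotypes overlapped.

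The 25 leading genes were those with the highest smallest ratio to all other nuclei over the 5 libraries, among genes with at least 20 CPM in each. The first was Gabra4, a GABA receptor subunit, at 64.2 ± 17.0 CPM in stromal and 1.09 ± 0.619 in all other nuclei (SD, n = 5). Sparcl1, a matrix glycoprotein, had 448 ± 86.2 and 12.6 ± 8.70, and Lrrc17, a secreted leucine-rich protein, 89.5 ± 28.1 and 3.01 ± 1.52. Adamts19, a metalloproteinase of the ADAMTS family, had 105 ± 25.1 CPM in stromal nuclei, and 0.377 ± 0.843 in capsule nuclei. Further leading genes encode the BMP ligand Bmp5 (117 ± 48.9 against 4.53 ± 2.67 CPM) and the prostaglandin E2 receptor Ptger2 (72.6 ± 9.54 against 2.83 ± 1.47). Col6a4 and Col26a1 are collagens, Lama2 a laminin chain, Rgs6 a regulator of G-protein signalling, Scara3 a scavenger receptor family member, Sntg2 a syntrophin, Rrs1 a ribosome assembly factor and Ddit4l an inhibitor of mTOR signalling. Wt1, Lhcgr and Esr2 were also among the 25.

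Several leading transcripts were non-coding or overlapped a neighbour, and their counts are uncertain because the handling of strands is unknown here. Wt1os, annotated as antisense, lies on the minus strand, with its start beside that of Wt1 on the plus strand. It had 358 ± 70.1 CPM in stromal nuclei (SD, n = 5). Dnm3os and Gm20629, also annotated as antisense, had 182 ± 29.4 and 335 ± 66.8 CPM, and the long non-coding Gm30382 had 1079.6 ± 478. 4930578G10Rik (3494 ± 269 CPM) and Gm12394 (926 ± 358 CPM) overlap on opposite strands of chromosome 4. Gm30382 ran from 516 CPM in WT replicate 1 to 1791 in WT replicate 3, the widest spread of these 6 transcripts.

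Among 20 measured stromal transcription factors, 6 lay at least 2-fold above all other nuclei in 5 of 5 libraries (5.43% of all measured genes did) and 5 at least 2-fold below (9.21%). Above were Wt1, Tcf21 (28.8 ± 8.78 against 1.14 ± 0.706 CPM), a basic helix-loop-helix factor of mesenchyme, Osr2 (87.0 ± 17.2 against 12.5 ± 2.67), Prrx1 (162 ± 28.4 against 20.3 ± 5.96), Nr2f2 (668 ± 112 against 192 ± 15.4) and Zfpm2 (2404 ± 251 against 572 ± 104), the cofactor FOG2 that binds Gata4. Below were Ebf1, Ebf2, Meis2, Nr5a1 and Gata6. Gata6 had 40.6 and 17.8 CPM from KO glands and 53.2, 10.2 and 12.4 in WT stromal nuclei, against 148 ± 18.9 in all other and 91.3 ± 17.1 in capsule nuclei. Gata6 was thus lower in the nuclei chosen for Gata4. Ebf1 also differed between the stromal types, at 59.6 ± 31.8 CPM in stromal and 985 ± 201 in capsule nuclei.

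Hedgehog pathway genes were high in both stromal and capsule nuclei. Of 10 measured genes, 6 lay at least 2-fold above all other nuclei in 5 of 5 libraries, as did 5.43% of all measured genes. At least 2-fold above capsule nuclei were 0 of 10 and at least 2-fold below 0 of 10, near the 3.29% and 3.88% of all measured genes. Ptch1, the receptor and a target of the pathway, stood at 1096 and 1837 CPM from KO glands, 1404, 2019 and 1322 from WT glands and 1769 from the unassigned library, against 781 ± 229.6 in capsule and 127 ± 34.1 in all other nuclei. The genotypes overlapped in Ptch1. Gli1, a target and transcription factor of the pathway, had 41.9 ± 9.09 CPM in stromal, 50.1 ± 13.0 in capsule and 3.20 ± 0.560 in all other nuclei. Gli2, its main activator, had 257 ± 27.0, 156 ± 32.4 and 14.1 ± 6.87. Smo and Sufu were also above, and Shh, the ligand, had 5 UMIs in the stromal nuclei of the 5 libraries.

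Some matrix genes were at least 2-fold higher in stromal nuclei than in all others, and fewer were so against capsule nuclei. Of 22 measured collagens 9 lay at least 2-fold above all other nuclei in 5 of 5 libraries (5.43% of all measured genes did), among them the fibrillar Col1a2 (271 ± 26.7 against 18.7 ± 9.51 CPM) and Col3a1 (174 ± 59.9 against 12.9 ± 7.47) and the basement membrane chains Col4a3, Col4a4, Col4a5 and Col4a6. Against capsule nuclei 0 of the 22 lay at least 2-fold above in 5 of 5 libraries and 2 at least 2-fold below, beside 3.29% and 3.88% of all measured genes. Of 17 measured basement membrane genes 5 were above all other nuclei (Lama1, Lama2, Nid1, Nid2 and Egflam) and 2 below, while 3 of 17 were above capsule nuclei and 3 of 17 below. Lama1, a laminin alpha chain of basement membranes, stood at 339.8 and 348 CPM from KO glands, 311, 441 and 301 from WT glands and 353 from the unassigned library, against 10.1 ± 8.29 in capsule and 57.6 ± 3.04 in all other nuclei. Lama1 was thus high in stromal nuclei of all 6 libraries and near 0 in the capsule. Of 13 measured elastic fibre and microfibril genes 5 were above all other nuclei, 0 were above capsule nuclei and 2 below, with Fbn1 at 239 ± 32.2 against 31.5 ± 7.85 CPM.

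Counts for families of secreted signals and receptors are read against the 5.43% of all measured genes that lay at least 2-fold above all other nuclei in 5 of 5 libraries and the 9.21% at least 2-fold below. Of 16 measured WNT and R-spondin genes 6 were at least 2-fold above all other nuclei in 5 of 5 libraries (Ror1, Ror2, Dkk3, Sfrp1, Wnt6 and Lgr6) and 4 below. Ror1, a WNT5A receptor, had 1093 ± 66.4 CPM against 218 ± 36.6 (SD, n = 5). Of 22 BMP, activin and TGF-beta genes 5 were above (Amhr2, Bmp4, Bmp5, Fstl1 and Tgfb3) and 2 below, the latter near the share over all genes. Of 28 PDGF, neuregulin, FGF and IGF genes 4 were above (Egfr, Fgf2, Igfbp4 and Pdgfrb) and 8 below. Egfr, the epidermal growth factor receptor, stood at 977 ± 84.7 CPM in stromal, 137 ± 52.6 in capsule and 78.9 ± 46.5 in all other nuclei. Aldh1a1, an enzyme of retinoic acid synthesis, stood at 636 and 774 CPM from KO glands, 916.02, 506 and 1278 from WT glands and 1045 from the unassigned library, against 68.9 ± 17.1 in capsule nuclei. Its range of stromal values was wide and the genotypes overlapped. Of 12 complement and chemokine genes 4 were above all other nuclei, among them C1s1, Cxcl12 and Cxcl14, and of 8 contractile genes 4 (Cald1, Myl9, Mylk and Myocd). None of the 15 genes of the proliferation list reached the measured level; their sum was 24.7 to 71.3 CPM in the grouped libraries and 204 in the unassigned library.

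Stromal nuclei were not uniform. Clustering the 1236 nuclei without any gene of the lists gave 4 subgroups, of 287, 442, 227 and 280 nuclei, each found in all 6 libraries. The genes used for clustering are correlated with those described here, and leading genes of a subgroup could be among them, as Kcnk2, Col11a1 and Postn were, so their high level is built in and no subgroup level carries a test. Subgroup 1 was 16.4 to 32.2% of the stromal nuclei of a library, subgroup 2 was 30.7 to 39.8%, subgroup 3 was 11.9 to 20.3% and subgroup 4 was 15.9 to 32.8%. Subgroup 3 was the deepest (median 4653 UMIs against 2837.5 to 2930 in the others), and 50 of its 227 nuclei held as many cortical or endothelial markers as genes of the rule. No subgroup came from a single library.

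Subgroup 3 held most of the Lhcgr signal. Its Lhcgr level was 196 and 342 CPM from KO glands, 102, 259 and 122 from WT glands and 111 from the unassigned library. In subgroup 2 Lhcgr ran from 8.36 to 29.0 CPM over the 6 libraries, in subgroup 4 from 0 to 20.4 and in subgroup 1 from 22.4 to 97.2. The lowest library of subgroup 3 thus lay above the highest of every other subgroup. Gas6, a ligand of TAM receptors, ran from 1133 to 1709.8 CPM in subgroup 3 and from 77.2 to 349 in subgroup 4. Gata4 was 644 to 1049.8 CPM in subgroup 3 and 333 to 763 in subgroup 4, which overlap. Ptprq and Frem1, both genes of the rule, were low in subgroup 3, at 52.2 to 209 and 6.32 to 87.2 CPM, although the rule chose its nuclei. The gene with the highest ratio in subgroup 3 was Pak3, a p21-activated kinase (median 438 CPM in it and 35.8 outside it).

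Subgroup 2 held most of the Esr2 signal. Its Esr2 level was 259 and 237 CPM from KO glands, 338, 96.6 and 318 from WT glands and 330 from the unassigned library, against 0 to 81.8 CPM in subgroup 3, 36.6 to 121 in subgroup 1 and 82.8 to 145 in subgroup 4. In WT replicate 2, the lowest library of subgroup 2, subgroup 4 was higher (116 CPM), and in the other 5 libraries subgroup 2 was the highest. Wt1 was also highest there, at 379.9 to 816 CPM, against 94.1 to 386 in subgroup 3. Wt1os, which starts beside Wt1 on the other strand, was among the clustering genes, and its part in this Wt1 level was not tested. The leading genes of subgroup 2 included Kcnk2, a potassium channel (median 294 CPM in it and 51.3 outside), and Col11a1, a fibrillar collagen (418 and 129). Detection in single nuclei showed the same separation: of 165 nuclei with Lhcgr 20 (12.1%) also held Esr2, against 23.0% of nuclei without Lhcgr, although those with Lhcgr were deeper (median 5450 against 2852 UMIs). Amhr2, by contrast, was found in 28.5% of nuclei with Lhcgr and 10.3% of those without.

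Subgroup 4 carried the Hsd11b1 signal. Hsd11b1 stood at 298 and 182 CPM from KO glands, 454, 309 and 169 from WT glands and 239 from the unassigned library, and it had 0 UMIs in subgroup 3, which allows up to 2.44 CPM over its summed nuclei. In subgroups 1 and 2 it was 0 to 13.4 and 0 to 19.3 CPM, so all libraries of subgroup 4 lay above the rest. Aldh1a1 was 1061 to 3504 CPM in subgroup 4, 732 to 1537 in subgroup 3, 134 to 530 in subgroup 1 and 115 to 279.5 in subgroup 2. Subgroups 3 and 4 thus overlapped in Aldh1a1, and in WT replicate 2 subgroup 3 was higher (1177 against 1061 CPM). Cxcl12, a chemokine of bone marrow and perivascular stroma, was 38.4 to 204 CPM in subgroup 4 and at most 29.0 in the others. Ptprq was also highest in subgroup 4 (1153 to 2391 CPM), while Nrg2 (233 to 435 CPM), Fbn2 (36.3 to 212) and Ptch1 (283 to 646) were lowest by median. Its leading genes were Tmeff2, a transmembrane protein with follistatin-like domains (median 3312 CPM in it and 118 outside), and the matrix protein gene Svep1 (281 and 12.3). Subgroup 1 was led by Nckap5, Postn, the matrix protein periostin (221 CPM in it and 49.6 outside), and Npr3, the natriuretic peptide clearance receptor (266 and 59.9). Postn did not set subgroup 1 apart from subgroup 3, at 75.7 to 265 CPM in subgroup 1 and 73.6 to 295 in subgroup 3.

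**Figure D3:**
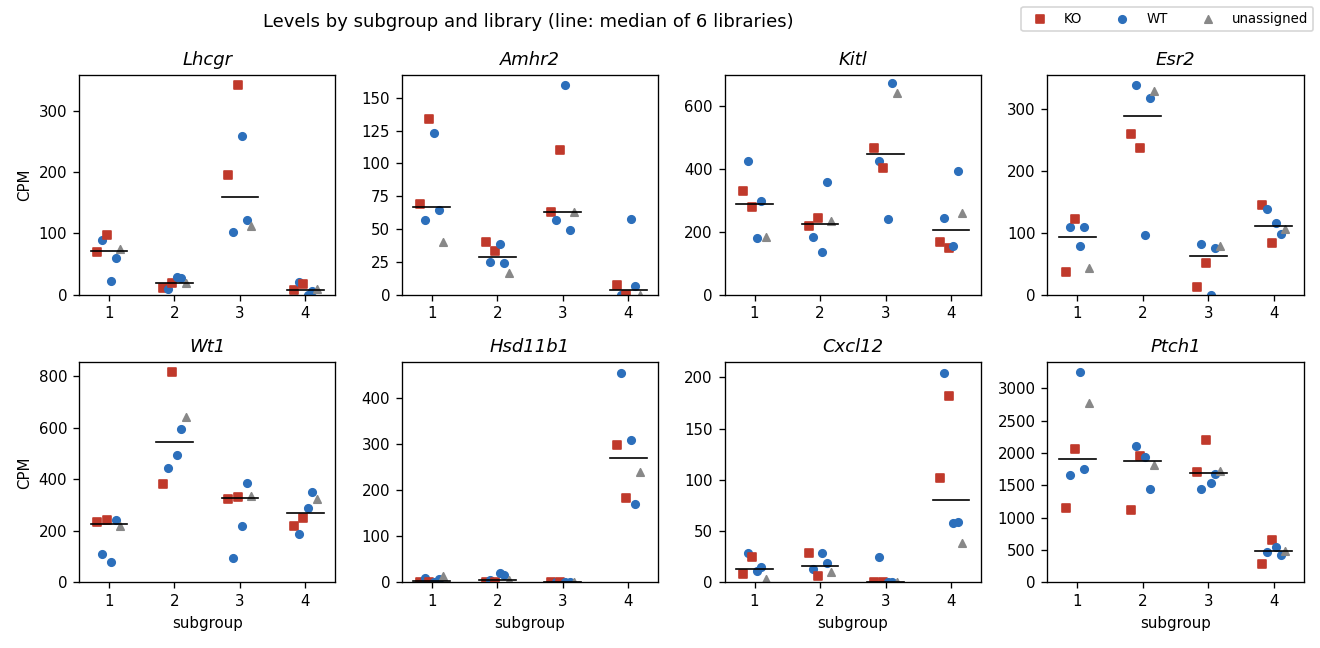
Level in CPM of 8 genes in the 4 subgroups of stromal nuclei, with 1 point per library (KO red squares, WT blue circles, unassigned library grey triangle) and a line at the median of 6 libraries. Lhcgr is highest in subgroup 3, where its libraries run from 102 to 342 CPM, Esr2 in subgroup 2 by median and Hsd11b1 in subgroup 4, and Ptch1 is lowest in subgroup 4.

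The share of stromal nuclei did not separate KO from WT libraries. Their share was 4.74% (95% Wilson interval 4.06 to 5.53) in KO replicate 1 and 8.28% (7.32 to 9.36) in KO replicate 2. In WT it was 2.86% (2.41 to 3.39), 4.35% (3.71 to 5.11) and 8.94% (8.04 to 9.93), and in the unassigned library 7.11% (6.33 to 7.98). The mean was 6.51% ± 2.5 (SD, n = 2) from KO glands and 5.38% ± 3.17 (SD, n = 3) from WT glands, a difference of 1.13 percentage points. Permuting the genotypes over libraries (exact, two-sided, on the logit of the share) gave p = 0.6, where 2 against 3 libraries allow 10 splits and no p below 0.1. With the larger annotation the KO library lay above the WT library, and with the smaller one the KO library lay between the 2 WT libraries. The difference turned to -0.135 points without WT replicate 1 and to -0.641 without KO replicate 2. It was 0.611 points without WT replicate 2, 2.89 without KO replicate 1 and 2.91 without WT replicate 3. The intervals cover counting error only, and the sort and the depth of a library can set such shares.

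Among stromal plus capsule nuclei the stromal share was 57.1% and 70.3% from KO glands, 44.0%, 55.9% and 66.2% from WT glands and 62.4% in the unassigned library. The mean was 63.7% ± 9.34 (SD, n = 2) from KO glands and 55.4% ± 11.1 (SD, n = 3) from WT glands, a difference of 8.33 points (exact two-sided permutation p = 0.4). It was 1.73 points without KO replicate 2, 2.64 without WT replicate 1, 13.8 without WT replicate 3 and 14.9 without KO replicate 1. WT replicate 3 lay between the KO libraries, so the genotypes overlapped. With the larger annotation the KO library (57.1%) lay above the WT library (44.0%). With the smaller one the KO library (70.3%) lay above both WT libraries (55.9% and 66.2%).

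**Figure D4:**
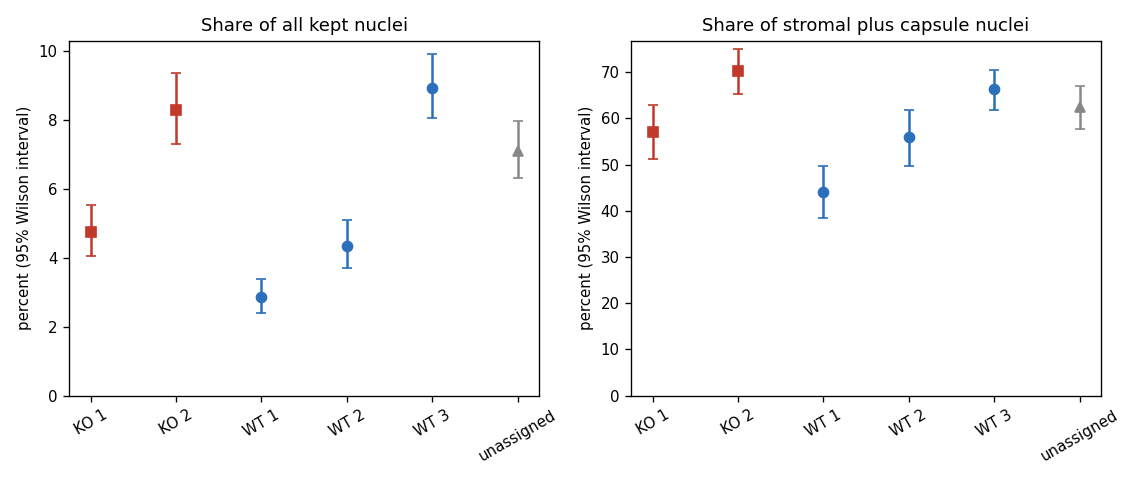
Stromal nuclei as a percentage of all kept nuclei (left) and of stromal plus capsule nuclei (right) in each library, with 95% Wilson intervals; KO red squares, WT blue circles, unassigned library grey triangle. WT replicate 3, at 8.94% of all nuclei, lies above both KO libraries and the other WT libraries lie below them.

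Gene by gene, KO and WT stromal nuclei were compared on counts summed per library with edgeR's quasi-likelihood test, with a term for the annotation and Benjamini-Hochberg adjustment. No gene of 8541 passed an adjusted p of 0.05 (0%). The unadjusted p was under 0.05 for 440 genes, 233 higher in KO (2.73%) and 207 lower (2.42%). DESeq2 called 1 gene, Cmss1. The median log2 fold of all tested genes was 0.002. The labels do not say that libraries came from separate litters or days, so the p-values measure the spread between these libraries. Counts of calls with a library left out are in the closing section.

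The 10 genes with the smallest p-values are given as values and not as changes, although all 10 were called without WT replicate 2 (edgeR adjusted p from 2.17e-08 to 0.0121) and without the filter on low counts. Egr1, an immediate early transcription factor, stood at 26.6 and 99.0 CPM from KO glands, 6.38, 23.8 and 9.27 from WT glands and 34.3 from the unassigned library (log2 fold 2.63 ± 0.45, SE, edgeR adjusted p = 0.134). Nr4a1, an immediate early nuclear receptor, stood at 54.5 and 96.4 CPM from KO glands, 24.5, 23.8 and 27.8 from WT glands and 175 from the unassigned library (1.53 ± 0.32, edgeR adjusted p = 0.289). For both genes KO lay above WT in all grouped libraries. Of the 7 tested genes of the immediate early and heat shock list, 6 had a fold above 0, as did 4297 of all 8541 genes, and 0 were called. The median was 0.39 against 0.002 for all genes. An unadjusted p under 0.05 was found for 3 higher in KO (2.73% of all genes), Jund and the above Egr1 and Nr4a1, which are named for their small p-values. In capsule nuclei of the same libraries the log2 fold was 2.19 ± 0.38 for Egr1 and 1.34 ± 0.49 for Nr4a1 (SE), and the differences between the nucleus types were 0.75 ± 0.62 and 0.34 ± 0.61. Summed over the list the level was 228 and 378 CPM from KO glands, 146, 173 and 144 from WT glands and 455 from the unassigned library, the highest of all 6.

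Among the others, Prlr, the prolactin receptor, stood at 97.9 and 30.5 CPM from KO glands, 222, 71.3 and 96.6 from WT glands and 133 from the unassigned library (log2 fold -1.33 ± 0.26, SE, edgeR adjusted p = 0.229). Srd5a2, a steroid 5-alpha-reductase, stood at 36.4 and 12.7 CPM from KO glands, 129, 27.2 and 48.7 from WT glands and 26.5 from the unassigned library (-1.82 ± 0.36, edgeR adjusted p = 0.249). The genotypes overlapped in both genes, and within each annotation the KO library was the lower. All other nuclei had more of both, with 766 ± 245 CPM of Prlr and 239 ± 79.3 of Srd5a2, and zona fasciculata markers summed to 1457 and 573 CPM from KO glands and 1111, 852 and 1032 in WT stromal nuclei. The part of RNA from cortical cells in these values was not tested. Cdon, a hedgehog coreceptor, stood at 165 and 292 CPM from KO glands and 58.5, 169.7 and 175 from WT glands (1.03 ± 0.21, edgeR adjusted p = 0.278), with overlapping groups.

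The remaining 5 were Gm48099, Gm19951, Cmss1, Camk1d and Taco1. Cmss1, a ribosomal small subunit protein, stood at 2388 and 1499 CPM from KO glands, 877, 791 and 400 from WT glands and 452 from the unassigned library (log2 fold 1.38 ± 0.24, SE, edgeR adjusted p = 0.134). Camk1d, a calcium-dependent kinase, stood at 640.4 and 754 CPM from KO glands, 393, 343 and 335 from WT glands and 322 from the unassigned library (0.94 ± 0.18, edgeR adjusted p = 0.229). In both genes the KO libraries lay above the WT libraries and the unassigned library lay at WT levels. Gm42418, which overlaps ribosomal RNA sequence, moved with them, at 15482 and 12021 CPM from KO glands, 7013, 8993 and 4387 from WT glands and 4083 from the unassigned library, and its part in these values was not tested. The capsule nuclei of the same libraries had log2 folds of 1.44 ± 0.33 for Cmss1, 1.21 ± 0.32 for Camk1d and 2.99 ± 0.54 for Gm48099, against 1.38, 0.94 and 2.49 in stromal nuclei. They had 1.16 ± 0.27 for Taco1 and 2.69 ± 0.71 for Gm19951, against 1.12 and 2.02. The differences between the nucleus types were -0.08 ± 0.27, -0.30 ± 0.30, -0.47 ± 0.65, 0.02 ± 0.28 and -0.55 ± 0.67 in the same order (SE).

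**Figure D5:**
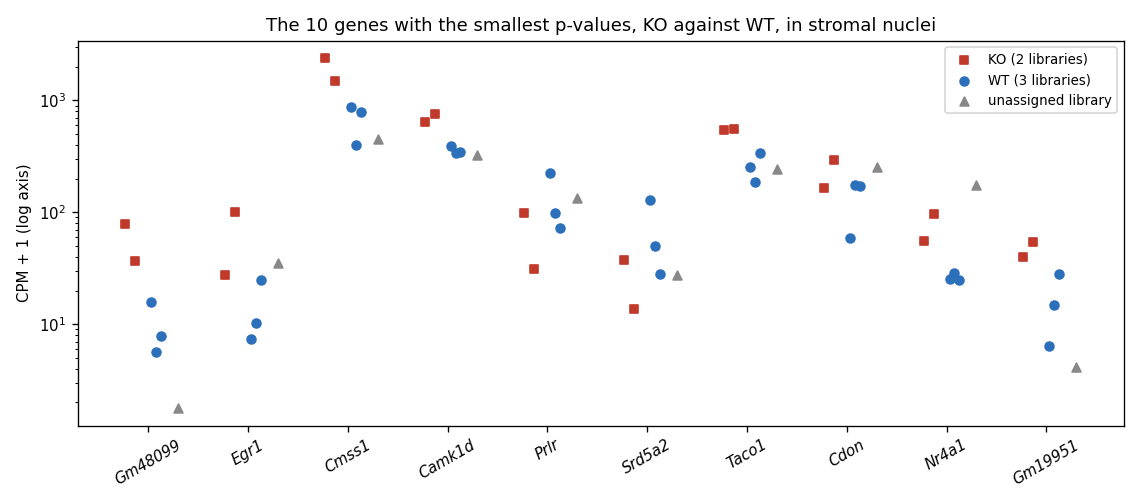
Level of the 10 genes with the smallest p-values for KO against WT in stromal nuclei (CPM + 1, log axis), with 1 point per library. KO points lie above WT points for Egr1, Nr4a1, Cmss1, Camk1d, Taco1, Gm48099 and Gm19951 and overlap them for Prlr, Srd5a2 and Cdon; no gene passed an adjusted p of 0.05.

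The genes of the gonadal list were not called between genotypes. Lhcgr had a log2 fold of 0.73 ± 0.27 (SE, edgeR adjusted p = 0.857) and Wt1 0.43 ± 0.19 (0.933). Amhr2 had 0.42 ± 0.39, Foxl2 0.31 ± 0.37 and Inha 0.41 ± 0.43 (edgeR adjusted p = 0.999 for each). Esr2, which is outside this list, had -0.26 ± 0.28 (edgeR adjusted p = 0.999). All 5 tested genes of the gonadal list had a fold above 0, as did 4297 of all 8541 genes, with a median of 0.42 against 0.002 for all genes, and 2 of them had an unadjusted p under 0.05 with KO higher (2.73% of all genes). Hedgehog genes had a median of 0.01, collagens 0.07 and stromal transcription factors -0.12, each with 0 genes called.

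The genotype effect in stromal nuclei was set against that in capsule nuclei in a fit of both with a term per library. With edgeR's quasi-likelihood test 0 of 9163 genes passed (0%), against 384 at an unadjusted p under 0.05 and 0 calls by DESeq2. The 5 smallest p-values belonged to Pde10a, Ryr2, Ralyl, Mbnl3 and Egfem1 (edgeR adjusted p from 0.268 to 0.366). Pde10a, a phosphodiesterase of cyclic nucleotides, stood at 529.9 and 178 CPM from KO glands and 194, 227 and 482 in WT stromal nuclei, and at 96.2 and 9.46 from KO glands and 253, 141 and 291 in WT capsule nuclei. Its log2 fold was 0.15 ± 0.44 in stromal and -1.99 ± 0.49 in capsule nuclei, and the difference 2.32 ± 0.43 (SE). The groups overlapped in stromal nuclei and did not in capsule nuclei. The capsule value of 9.46 CPM in KO replicate 2 is near the floor, since its 98 capsule nuclei held 105716 UMIs in all. Ryr2, a calcium release channel, had 0.58 ± 0.46 and -2.74 ± 0.88. The difference in Pde10a was called when 4 genes of the rule were needed, when nuclei with as many cortical or endothelial markers were left out, without WT replicate 3 and without the filter on low counts. All 5 genes were called without that filter, Ralyl also without WT replicate 3 and Egfem1 without WT replicate 1.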

How the data were processed

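The authors deposited UMI counts per gene and barcode for 6 libraries, per the file headers made with Cell Ranger 4.0.0 (KO replicate 1, WT replicate 1) or 3.1.0. The submitters' processing notes name mm10 and Seurat. Counting of introns and strands is not given there. The 30406 genes in both annotations were used. Of 21724 barcodes 48 had under 300 genes or 5% or more of mitochondrial UMIs and were removed, as were 642 with the highest scrublet scores (scanpy 1.11.5), up to 0.8% per 1000 barcodes. Libraries held 4825169 to 43377724 UMIs.

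Groups come from the labels, replicate numbers from accession order. Counts were summed per library and tested with edgeR 4.0.16 (TMM, filterByExpr, quasi-likelihood), tested on simulated data. The SE is the fold over the square root of the F statistic. Levels are CPM computed from the counts. Subgroups came from Leiden clustering (1500 variable genes, 15 components, resolution 0.4). The members and lists were chosen with earlier results of these data known. Named genes were those of the rule and the lists, 25 leading genes and the 10 or 5 smallest p-values, and some of these are not reported here. Alternatives were DESeq2 1.42.0, RLE factors, no filter, no annotation term, thinning, 4 genes of the rule, doublets kept, the unassigned library as KO or WT, and each library left out.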

Additional observations from a re-analysis of the deposited data

How the results depend on the processing

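No paired analysis was possible because replicate numbers follow accession order and the labels give no pairing. Nuclei with at least as many cortical or endothelial markers as genes of their own rule are called mixed below, though mixing was not tested. The count of genes called between KO and WT in stromal nuclei was 0 with RLE factors, without the annotation term, with 4 genes of the rule, with thinning, with doublets kept, with mixed nuclei left out, and with the unassigned library as KO or WT. It was 1 with DESeq2, 36 without the filter on low counts, and 3 to 56 with 1 library left out (14 and 11 without KO replicates 1 and 2, 27, 56 and 3 without WT replicates 1, 2 and 3). Leaving out KO replicate 1 or 2 leaves 1 KO library, assumed to vary like the others. Without WT replicate 1 the annotation term takes up KO replicate 1, then the only library with the larger annotation. That fit and the one without KO replicate 1 both set KO replicate 2 against WT replicates 2 and 3. They are not separate checks. The difference from capsule nuclei had 0 calls with DESeq2, 31 without the filter, 1 with 4 genes of the rule, 1 with mixed nuclei left out (an alternative chosen after seeing the data) and 0 to 2 with 1 library left out (2 without WT replicate 1 or 3). The share difference ranged from -0.641 to 2.91 points with 1 library left out, and was 0.00560 with 4 genes of the rule and 2.21 with nuclei of at least 1000 genes; the cause of its turns was not tested. The difference in the share among stromal plus capsule nuclei ranged from 1.73 to 14.9 points with 1 library left out. The 15 named folds kept their sign in every alternative that gave a value. They were chosen for small p-values in these same libraries, so a kept sign is no support for them. Their size varied: over the alternatives the log2 fold of Prlr ran from -1.53 to -0.07 and that of Srd5a2 from -1.89 to -0.49. The difference in Egfem1 ran from 0.58 to 5.68. Shallow KO replicate 2 and WT replicate 2 limit detection per nucleus.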
